A study of Mus musculus with 6 samples.

Results

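The heat shock proteins and DnaJ cochaperones were taken as the genes whose symbol begins with Hsp followed by a letter or digit, or with Dnaj followed by a, b or c and a digit. This rule found 66 of the 14865 listed genes. They were measured by RNA-seq of polyA RNA from the cochlear ducts of C57BL/6 mice at postnatal day 8, in a study of what the Gfi1Cre allele does to the inner ear. The 3 Gfi1+/+ libraries came from wild-type mice, 1 mouse and both of its cochleae per library. The 3 Gfi1Cre/+ libraries came from mice with 1 copy of Gfi1 replaced by the sequence of Cre recombinase, and each pooled the cochleae of 3 mice. Gfi1 is a transcriptional repressor needed by the sensory hair cells, so the Gfi1Cre/+ mice were haploinsufficient for it and also made Cre in every cell that uses its promoter. No tissue was heated or treated. The Gfi1+/+ libraries therefore carry the variation between single mice and the Gfi1Cre/+ libraries that between pools.

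Heat shock proteins are molecular chaperones, which keep other proteins from aggregating and help them to fold. The HSP70 proteins bind unfolded stretches in cycles of ATP hydrolysis, the DnaJ proteins (HSP40) deliver the clients and start the hydrolysis, HSP90 takes over clients such as kinases and steroid receptors, the HSP60 chaperonin with its lid HSP10 encloses proteins inside mitochondria, and the small heat shock proteins hold clients without using ATP. Some members are made at all times, some are switched on by heat shock factor 1 when proteins unfold in the cytosol, and those of the endoplasmic reticulum (ER) are switched on when proteins unfold there. In the cochlea the heat shock response is known for its part in protecting hair cells from heat, noise and ototoxic drugs.

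By class, the 66 members were 5 small heat shock proteins, 13 HSP70 genes with Hsph1 counted among them, 3 HSP90 genes, the pair Hspd1 (HSP60) and Hspe1 (HSP10), 40 DnaJ genes and 3 others that share only the letters of the name. The DnaJ genes were 4 of type A, 11 of type B and 25 of type C, the last including the pseudogene Dnajc19-ps. The 3 others were Hspbp1, a nucleotide exchange factor of HSP70, Hspbap1, a protein that binds a small heat shock protein, and Hspg2, which encodes the basement membrane proteoglycan perlecan and is no chaperone. Hspb11 carries a small heat shock protein name but encodes a subunit of the intraflagellar transport machinery of cilia.

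The promoters were searched for the letters of 2 elements through which chaperone genes are known to be induced, the ER stress element and the heat shock element. Promoter windows from 250 bases before to 50 bases after the start of the gene were matched for 53 of the 66 members in RefSeq, on GRCm38.p6. The ER stress element, searched on both strands as CCAAT, any 9 bases and CCACG, was found in 3 of the 53 members (5.66%) and in 0.137% of the 27025 genes with a promoter entry. The 3 members were Hspa5, the HSP70 of the ER known as BiP, Hsp90b1, the HSP90 of the ER known as GRP94, and Dnajc3, an ER cochaperone of Hspa5. The heat shock element of 3 units, searched on both strands as GAA, any 2 bases, TTC, any 2 bases and GAA, was found in 4 of the 53 members (7.55%) and in 0.662% of all genes. These were Dnajb6, Hspd1, Hspe1 and Hsph1. Of the members listed below as induced by heat, Hsph1 alone matched this strict pattern. Hspa1a, Hspa1b, Dnajb1, Dnaja1 and Hspb1 were searched without a match, and Hspa8 and Hsp90aa1 had no promoter entry. A match is a run of letters and not a shown binding site, and factor binding was not measured. The windows are printed on the strand of the gene, with the bases of the match in capitals and overlapping matches joined. The 2 elements did not overlap each other, and the match of Hsph1, which reaches past the start of the gene, is not printed. The Hspd1 and Hspe1 lines are the same bases of chromosome 1 read from opposite strands, because these genes stand head to head and share their promoter.
Hspa5, chr2:34772020-34772048, plus strand: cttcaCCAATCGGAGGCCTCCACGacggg
Hsp90b1, chr10:86705618-86705676, minus strand: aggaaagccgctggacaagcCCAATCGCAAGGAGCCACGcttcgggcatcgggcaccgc
Hsp90b1, chr10:86705513-86705571, minus strand: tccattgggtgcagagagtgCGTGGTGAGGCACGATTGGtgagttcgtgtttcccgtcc
Dnajc3, chr14:118937807-118937865, plus strand: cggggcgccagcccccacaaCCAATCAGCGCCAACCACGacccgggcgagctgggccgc
Hspd1, chr1:55088054-55088081, minus strand: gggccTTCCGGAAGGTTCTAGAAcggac
Hspe1, chr1:55088054-55088081, plus strand: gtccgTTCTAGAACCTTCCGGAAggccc
Dnajb6, chr5:29735844-29735872, plus strand: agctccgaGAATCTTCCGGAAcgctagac

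Levels are given in normalized reads, the reads counted on a gene over a factor that evens out library size, and 3 values in a row stand for replicates 1, 2 and 3. Between 13603908 and 19359753 reads were counted on genes per library, and 3 reads, the limit that a count of 0 allows, are between 2.61 and 3.70 normalized reads. Hair cell markers (10 of 11 listed genes found), markers of the cochlear duct epithelium (11 of 11) and of the stria vascularis (6 of 6) were present in all libraries with none at 0. Gfi1 itself, counted over all exons including those the knock-in keeps, had 147, 160 and 152 normalized reads in the Gfi1+/+ libraries and 136, 130 and 139 in the Gfi1Cre/+ libraries. Gfi1+/+ replicate 1 stood apart from the others, at -44.0 on a first principal component where the rest lay between -0.304 and 16.2. The 10 neuron markers summed to 10361, 3789 and 2351 normalized reads in Gfi1+/+ and to 1879, 2357 and 2720 in Gfi1Cre/+. The 11 erythroid markers summed to 29509 to 43877 normalized reads in Gfi1+/+ and to 38397 to 66442 in Gfi1Cre/+. The 4 genes of the whole table with an adjusted p under 0.05 lie on chromosome Y, so sex and genotype cannot be told apart in any difference given here. In bulk RNA, fewer cells of a type and less RNA per cell cannot be told apart either.

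All 66 members were above the minimum for testing, which was 40 normalized reads in at least 1 library. Together they took 0.697% to 0.714% of the counted reads of a library, and Hspg2 apart 0.619% to 0.642%. The fewest reads lay under Hspa1a, with 27 to 61 per library, and Dnajb3, with 28 to 41. To compare genes with each other, normalized reads were divided by the length of all exons of the gene in kilobases. On this scale the members spanned from 11.2 reads per kb for Hspbap1 to 8184 reads per kb for Hsp90ab1, with a median of 174, against a median of 111 over all genes tested. The 3 highest members were Hsp90ab1, Hspa5 and Hsp90b1, and they also led when the longest transcript was used as the length.

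**Figure D1:**
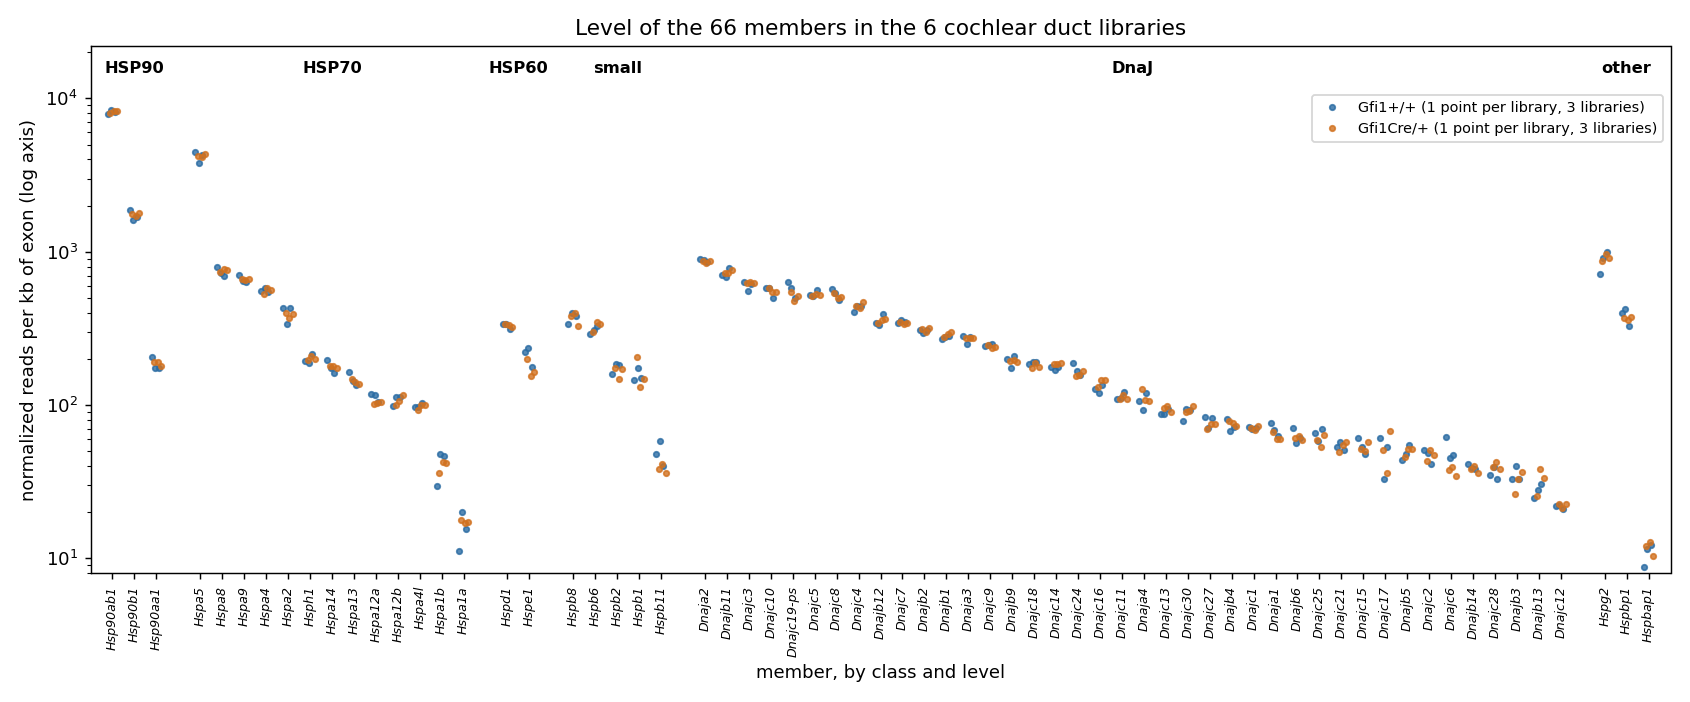
Normalized reads per kb of exon (log axis) for each of the 66 members, ordered by class and level, with 1 point per library and the genotypes in 2 colours. Hsp90ab1 lies highest at 8184 reads per kb and the points of both genotypes lie on top of each other in nearly every member, with Hspa1a, Hspa1b, Dnajc17 and Dnajc6 among the most spread.

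Most HSP90 reads came from the constitutive cytosolic form. Hsp90ab1 (chromosome 17, 45567775 to 45573271 of GRCm38) had 23852, 25073 and 24383 normalized reads in Gfi1+/+ and 24240, 24874 and 24837 in Gfi1Cre/+. It had the narrowest range of all members over the 6 libraries, 0.0720 on the log2 scale, and no library stood out. Per kb of exon it made up 79.3% to 82.5% of the HSP90 sum of each library. Hsp90aa1, the heat-inducible cytosolic form, had 815, 686 and 682 normalized reads in Gfi1+/+ and 751, 749 and 706 in Gfi1Cre/+. Hsp90ab1 was thus 38.4 to 47.9 times as high as Hsp90aa1 per kb, although 68.7% of the Hsp90aa1 transcript is near-identical to other loci and uniquely mapped reads alone were counted, which makes its level uncertain. Hsp90b1, the ER form, had 7546, 6450 and 6809 normalized reads in Gfi1+/+ and 7132, 6904 and 7240 in Gfi1Cre/+. The genotypes overlapped in all 3 HSP90 genes, whose log2 fold changes (Gfi1Cre/+ against Gfi1+/+) were 0.01 for Hsp90ab1, 0.02 for Hsp90aa1 and 0.04 for Hsp90b1.

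Among the HSP70 genes the ER form led. Hspa5 (chromosome 2, 34771970 to 34777547) had 18947, 16121 and 18168 normalized reads in the Gfi1+/+ libraries and 17899, 17462 and 18262 in the Gfi1Cre/+ libraries, and made up 54.4% to 57.3% of the HSP70 sum per kb. Gfi1+/+ replicates 1 and 2 were its highest and lowest libraries, and its log2 fold change was 0.01. Hspa8, the constitutive cytosolic HSC70 that also strips clathrin from vesicles, had 3434, 3118 and 2988 normalized reads in Gfi1+/+ and 3163, 3296 and 3259 in Gfi1Cre/+. Per kb, Hspa5 was 5.26 to 6.18 times as high as Hspa8. Hspa5 also led with the longest transcript as the length, at 4850 against 1341 reads per kb, but the ratio was then smaller, and 84.5% of the Hspa8 transcript is near-identical to pseudogenes or other loci, which makes its level uncertain. Hspa9, the mitochondrial mortalin, had 3059, 2786 and 2730 normalized reads in Gfi1+/+ and 2848, 2836 and 2851 in Gfi1Cre/+. The Gfi1Cre/+ libraries lay inside the range of the Gfi1+/+ libraries for all of Hspa5, Hspa8 and Hspa9.

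The strictly heat-inducible HSP70 genes were low. Hspa1a had 33.3, 59.7 and 46.4 normalized reads in Gfi1+/+ and 53.1, 50.6 and 51.0 in Gfi1Cre/+. Its neighbour Hspa1b had 82.7, 135 and 130 normalized reads in Gfi1+/+ and 102, 119 and 117 in Gfi1Cre/+. Both were lowest in Gfi1+/+ replicate 1 and highest in Gfi1+/+ replicate 2, and in both the Gfi1Cre/+ libraries lay within the range of Gfi1+/+. The constitutive Hspa8 was higher than Hspa1b per kb by a factor of 19.0 ± 6.95 (SD, n = 3) in Gfi1+/+ and 18.8 ± 1.23 in Gfi1Cre/+. The 2 inducible genes are near-identical to each other over 74.0% of Hspa1a and 78.5% of Hspa1b, so their levels rest on the bases that differ. Their log2 fold changes were 0.18 for Hspa1a (95% interval -0.35 to 0.72) and -0.01 for Hspa1b (-0.44 to 0.42), which limit a genotype difference far less closely than those of the abundant members. Hsph1, the HSP110 nucleotide exchange factor of HSP70, had 1417, 1371 and 1567 normalized reads in Gfi1+/+ and 1433, 1528 and 1449 in Gfi1Cre/+.

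The chaperonin pair did not keep a fixed ratio. Hspd1, which forms the HSP60 barrel, had 894, 889 and 834 normalized reads in Gfi1+/+ and 891, 882 and 851 in Gfi1Cre/+. Hspe1, its HSP10 lid, had 330, 346 and 259 normalized reads in Gfi1+/+ and 295, 227 and 242 in Gfi1Cre/+. Hspd1 was flat and Hspe1 was not, so that the ratio of Hspe1 to Hspd1 per kb ran from 0.462 to 0.697 although the genes share the promoter printed above. The log2 fold change of Hspe1 was -0.29 with a standard error of 0.133 (unadjusted p = 0.0596, adjusted p = 0.999, limma with Benjamini-Hochberg adjustment), and its genotypes overlapped. Near-identical copies elsewhere cover 66.5% of the Hspe1 transcript and 71.1% of the Hspd1 transcript, and their part in the ratio was not tested.

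The small heat shock proteins were led by 2 that are best known from muscle. Hspb8, a partner of BAG3 in chaperone-assisted autophagy, had 659, 782 and 747 normalized reads in Gfi1+/+ and 741, 773 and 637 in Gfi1Cre/+. Hspb6, a small heat shock protein of smooth and cardiac muscle, had 667, 710 and 755 normalized reads in Gfi1+/+ and 688, 802 and 774 in Gfi1Cre/+. Of 13 listed skeletal muscle markers 3 were found, summing to 47.0 to 75.3 normalized reads per library, and 4 of 5 smooth muscle markers summed to 734 to 890. Hspb2, the third member known from muscle, had 133, 154 and 153 normalized reads in Gfi1+/+ and 144, 122 and 144 in Gfi1Cre/+, and 30.2% of its exon bases also belong to the adjacent Cryab. Cryab, the alphaB-crystallin, is a small heat shock protein that the naming rule does not take, and with 3692 reads per kb it was above every small heat shock protein named Hspb. Hspb1 (HSP27), which is induced by heat, had 149, 180 and 154 normalized reads in Gfi1+/+ and 211, 136 and 152 in Gfi1Cre/+, with the highest and lowest library both in Gfi1Cre/+. Hspb11, the ciliary transport gene, had 100, 121 and 83.3 normalized reads in Gfi1+/+ and 79.2, 86.1 and 74.5 in Gfi1Cre/+, with a log2 fold change of -0.33 (95% interval -0.70 to 0.04).

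No single DnaJ gene dominated its class. The highest, Dnaja2, a general cytosolic cochaperone of HSP70, had 870 reads per kb and made up 9.80% to 10.3% of the DnaJ sum. It had 2670, 2624 and 2555 normalized reads in Gfi1+/+ and 2574, 2521 and 2594 in Gfi1Cre/+. The next 3 by level were cochaperones of the ER, Dnajb11 with 731, Dnajc3 with 614 and Dnajc10 with 556 reads per kb. Dnajb11, which brings clients to Hspa5, had 2287, 2205 and 2551 normalized reads in Gfi1+/+ and 2362, 2335 and 2453 in Gfi1Cre/+. Dnajc3 had 3245, 2856 and 3152 normalized reads in Gfi1+/+ and 3193, 3244 and 3237 in Gfi1Cre/+, and Dnajc10, a reductase of the ER, had 2919, 2887 and 2491 in Gfi1+/+ and 2912, 2744 and 2753 in Gfi1Cre/+. In all 3 the highest and the lowest library were both Gfi1+/+. The pseudogene Dnajc19-ps followed at 541 reads per kb, but its 351 bases are identical or nearly so to Dnajc19 over 100% of their length, so its reads cannot be assigned to it with confidence. Dnajc5, the cysteine string protein of synaptic vesicles, had 527 reads per kb. The order among these genes depended on the length used, since with the longest transcript Dnajc8 (955) and Dnajb11 (941) lay above Dnaja2 (887) in reads per kb.

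The heat-inducible DnaJ genes were of middling level. Dnajb1 (HSP40), the chief inducible partner of HSP70, had 862, 893 and 909 normalized reads in Gfi1+/+ and 889, 936 and 964 in Gfi1Cre/+, with a log2 fold change of 0.07. Dnaja1, another cytosolic partner, had 660, 595 and 545 normalized reads in Gfi1+/+ and 574, 515 and 520 in Gfi1Cre/+, with a log2 fold change of -0.16 (unadjusted p = 0.0913, limma). Neither gene separated the genotypes. Per kb, the inducible Dnajb1 (284) lay well above Dnaja1 (65.9), and the latter is near-identical to other loci over 21.2% of its transcript.

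Gfi1Cre/+ and Gfi1+/+ differed in none of the 66 members at an adjusted p under 0.05, in limma as well as in edgeR and DESeq2 on the reads recovered from the values. Of all genes tested, limma and edgeR each called 0.0277% at that threshold and DESeq2 0.0692%. At an unadjusted p under 0.05, 1 of 66 members was found in each of the 3 tools, and it was Dnajc6 in each. That is 1.52% of the members, where limma called 3.04% of all genes tested and 2.02% as lower in Gfi1Cre/+ (3.64% in edgeR and 2.59% in DESeq2). Without Gfi1+/+ replicate 3 the count rose to 8 of 66 members (12.1%), against 16.2% of all genes. Without Gfi1Cre/+ replicate 1 it was 3 of 66 (4.55%) against 2.17%. It stayed at 1 when any other library was left out. The log2 fold changes of the members ran from -0.45 to 0.21, with 33 members higher and 33 lower in Gfi1Cre/+, and the median was -0.00, as it was over all genes tested. By class the median log2 fold change was -0.03 for the small heat shock proteins, -0.00 for HSP70, 0.02 for HSP90, -0.14 for the HSP60 pair, -0.00 for DnaJ and 0.08 for the 3 others. With 5, 3, 2 and 3 genes, the medians of the small, HSP90, HSP60 and other classes each rest on 1 or 2 genes.

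The intervals show how much change the data leave room for. In 59 of the 66 members the whole 95% interval of the log2 fold change lay within 0.5 of 0 (89.4%), against 82.7% of all genes tested. Higher counts narrow these intervals, and among genes that averaged 200 or more normalized reads the share was 51 of 53 members and 96.9% of all genes. The 7 members with wider intervals were Dnajc6, Hspe1, Hspb11, Hspa1a, Dnajc17, Dnajb3 and Dnajb13. Of these, Dnajb3 and Dnajb13 fall outside the rule for named genes and are listed here after their values were seen. For the abundant chaperones the limits were tight, with -0.13 to 0.16 for Hsp90ab1, -0.16 to 0.18 for Hspa5 and -0.11 to 0.17 for Hspa8.

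**Figure D2:**
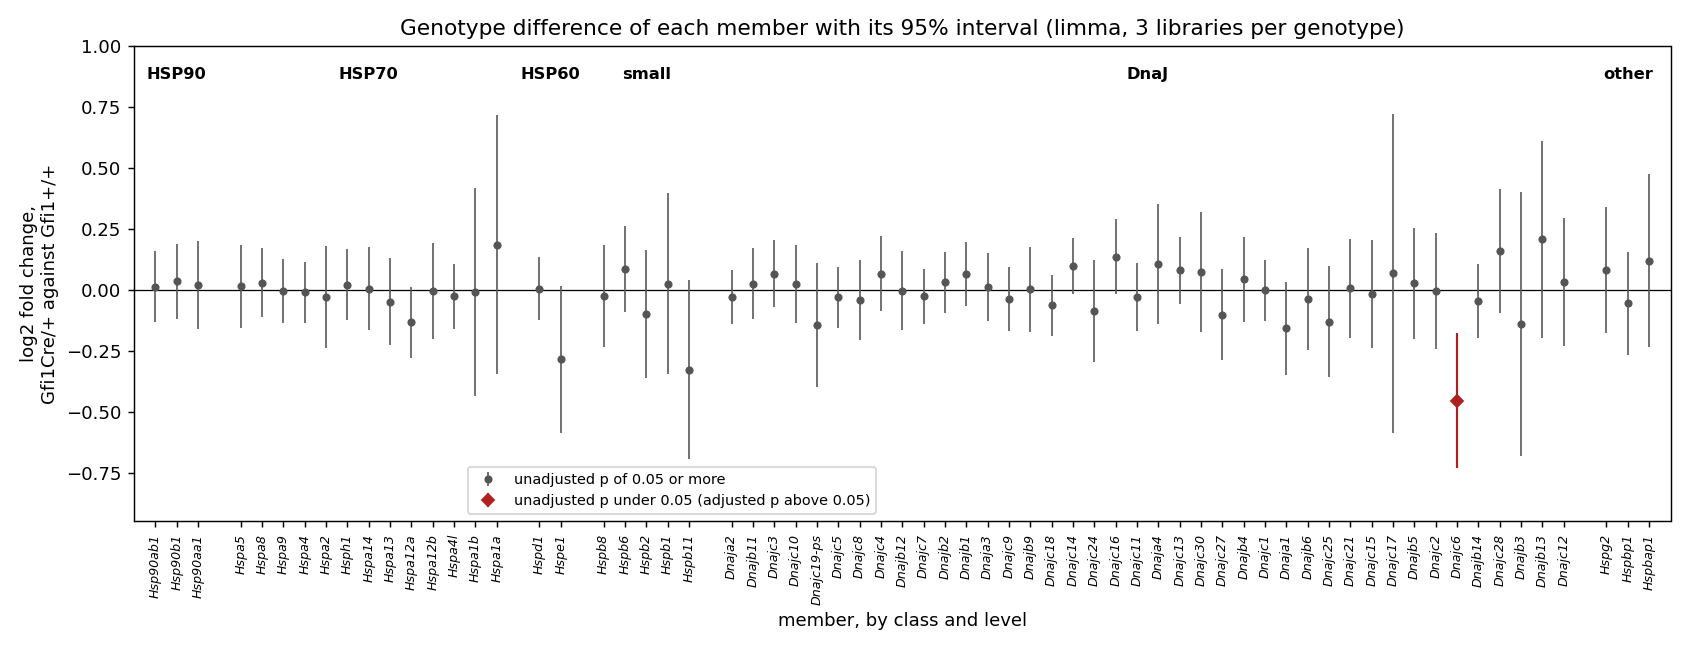
Log2 fold change of each of the 66 members, Gfi1Cre/+ against Gfi1+/+, with its 95% interval from limma over 3 libraries per genotype. Most points lie close to 0, and Dnajc6 at -0.45 is the one member whose interval leaves 0 out.

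Dnajc6 encodes auxilin, the neuronal DnaJ protein that recruits HSC70 to uncoat clathrin-coated vesicles after endocytosis at the synapse. The gene (ENSMUSG00000028528) lies on chromosome 4 from 101496648 to 101642799 of GRCm38. It had 364, 268 and 281 normalized reads in Gfi1+/+ and 224, 233 and 203 in Gfi1Cre/+. Every Gfi1Cre/+ library was below every Gfi1+/+ library, and Gfi1+/+ replicate 1 was far above the rest. The log2 fold change was -0.45 with a standard error of 0.123 and a 95% interval of -0.73 to -0.18 (unadjusted p = 0.00486, adjusted p = 0.999, limma with Benjamini-Hochberg adjustment over all genes tested). Across all alternatives and left-out libraries the log2 fold change stayed between -0.54 and -0.32 and the adjusted p at 0.128 or above, the lowest being without Gfi1+/+ replicate 3. Of the members, 2 of 66 had genotypes that did not overlap (3.03%), against 7.52% of all genes tested, and with 1 library left out 4 to 15 did not overlap, against 13.5% to 34.5%. The other was Dnajc14, an ER membrane protein that handles dopamine receptors, which was singled out here after its values were seen. It had 1157, 1112 and 1161 normalized reads in Gfi1+/+ and 1220, 1215 and 1235 in Gfi1Cre/+, a log2 fold change of 0.10 (unadjusted p = 0.0880, limma). Of its exon bases 19.9% also belong to overlapping genes.

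Neuron markers were also lower in Gfi1Cre/+, and their sum did not keep the order of Dnajc6 across the libraries. All 10 of the neuron list were lower in Gfi1Cre/+ by their log2 fold change, with a median of -1.13. In limma 6 of the 10 had an unadjusted p under 0.05, against 3.04% of all genes tested, and none an adjusted p under 0.05. Genotypes overlapped in every one of the 10. Their mean log2 deviation from the mean of the gene over the 6 libraries was 1.79, 0.27 and -0.51 in Gfi1+/+. In Gfi1Cre/+ this mean was -0.84, -0.51 and -0.21. As given above, the neuron sum was highest in Gfi1+/+ replicate 1, which was also the highest library for Dnajc6. The order of the other libraries was not the same. Gfi1+/+ replicate 3 had a neuron sum of 2351, nearly equal to Gfi1Cre/+ replicate 2 (2357) and below Gfi1Cre/+ replicate 3 (2720). The Dnajc6 value of Gfi1+/+ replicate 3 (281) was above both. Single markers went both ways between Gfi1+/+ replicate 3 and Gfi1Cre/+ replicate 2. Nefm had 378 and 315 normalized reads, and Tubb3 had 558 and 615. Within Gfi1Cre/+, replicate 3 had the highest neuron sum and the lowest Dnajc6 value. Without Gfi1+/+ replicate 1 the log2 fold change of Dnajc6 was -0.32 (unadjusted p = 0.0111, limma). The part of neuron content in the Dnajc6 difference was not tested. The other members known from neurons differed less. Hspa12a, a distant HSP70 relative abundant in brain, had 1092, 1077 and 961 normalized reads in Gfi1+/+ and 928, 953 and 968 in Gfi1Cre/+, a log2 fold change of -0.13 (unadjusted p = 0.0692, limma). Dnajc5 had 3655, 3560 and 3899 normalized reads in Gfi1+/+ and 3561, 3699 and 3611 in Gfi1Cre/+, a log2 fold change of -0.03 with overlapping genotypes.

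**Figure D3:**
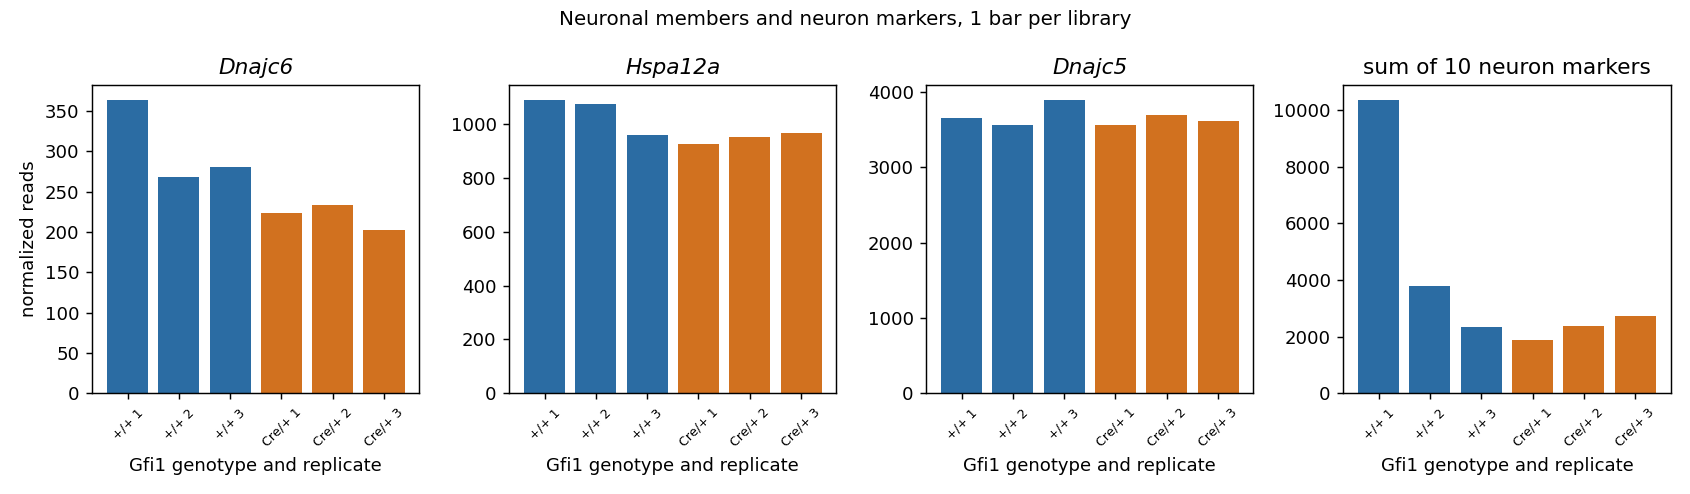
Normalized reads of Dnajc6, Hspa12a and Dnajc5 and the summed normalized reads of 10 neuron markers, with 1 bar per library from 0. The 3 Gfi1Cre/+ bars of Dnajc6 (203 to 233) lie below the 3 Gfi1+/+ bars (268 to 364), Dnajc5 is level, and the neuron sum of 10361 in Gfi1+/+ replicate 1 exceeds all others.

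Across the 6 libraries most members varied little, and so did most genes of a like level. The range from the lowest to the highest library had a median of 0.251 on the log2 scale over the members and 0.284 over all genes tested. It was under 0.3 in 43 of 66 members (65.2%), against 53.5% of all genes tested. Part of this goes with the level of the genes. Among those that averaged 200 or more normalized reads the shares were 42 of 53 members (79.2%) and 69.5% of all genes. The median ranges at this level were nearly equal, 0.233 over the members and 0.234 over all genes. Without Gfi1+/+ replicate 1 the shares were 77.3% of the members and 63.5% of all genes. After Hsp90ab1 the narrowest range was that of Dnajc7 (0.0787), a cochaperone that links HSP70 and HSP90. The widest ranges were those of Dnajc17 (1.03), Dnajc6 (0.841), Hspa1a (0.822), Hspa1b (0.701) and Hspb11 (0.697). Dnajc17, a DnaJ protein linked to splicing, had 80.2, 42.9 and 69.6 normalized reads in Gfi1+/+ and 66.2, 47.1 and 88.7 in Gfi1Cre/+, on 41 to 94 counted reads, so both genotypes held low and high libraries.

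No library shifted all members the same way, though 2 libraries were extreme more often in the members than over all genes. Gfi1+/+ replicate 1 was the highest library in 25 of 66 members (37.9%) and in 24.9% of all genes tested, and Gfi1+/+ replicate 2 was the lowest in 18 of 66 (27.3%) and in 17.3% of all genes. Among genes that averaged 200 or more normalized reads, replicate 1 was highest in 24 of 53 members (45.3%) and in 23.0% of all genes. At that level replicate 2 was lowest in 17 of 53 (32.1%) and in 18.1% of all genes. Deviations were taken on the log2(normalized reads + 1) scale from the mean of the gene over the 6 libraries. Of the 6 ER members, Hspa5, Hsp90b1, Dnajb9, Dnajb11 and Dnajc3 were lowest in Gfi1+/+ replicate 2, whereas Dnajc10 lay above its own mean there (deviation 0.05) and was lowest in Gfi1+/+ replicate 3 (-0.16). The mean deviation of the 6 in Gfi1+/+ replicate 2 was -0.10. Dnajb9, an ER cochaperone that restrains the stress sensor IRE1, had 512, 446 and 530 normalized reads in Gfi1+/+ and 496, 500 and 490 in Gfi1Cre/+. The ratio of Hsp90b1 to Hspa5 per kb stayed between 0.393 and 0.420. Among 10 other ER chaperones and stress genes, which the naming rule does not take, Gfi1+/+ replicate 2 was lowest in 6, with a mean deviation of -0.11. The genotype difference of the 6 ER members was a median log2 fold change of 0.02, from 0.00 to 0.07, and the median was -0.02 without Gfi1+/+ replicate 2.

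**Figure D4:**
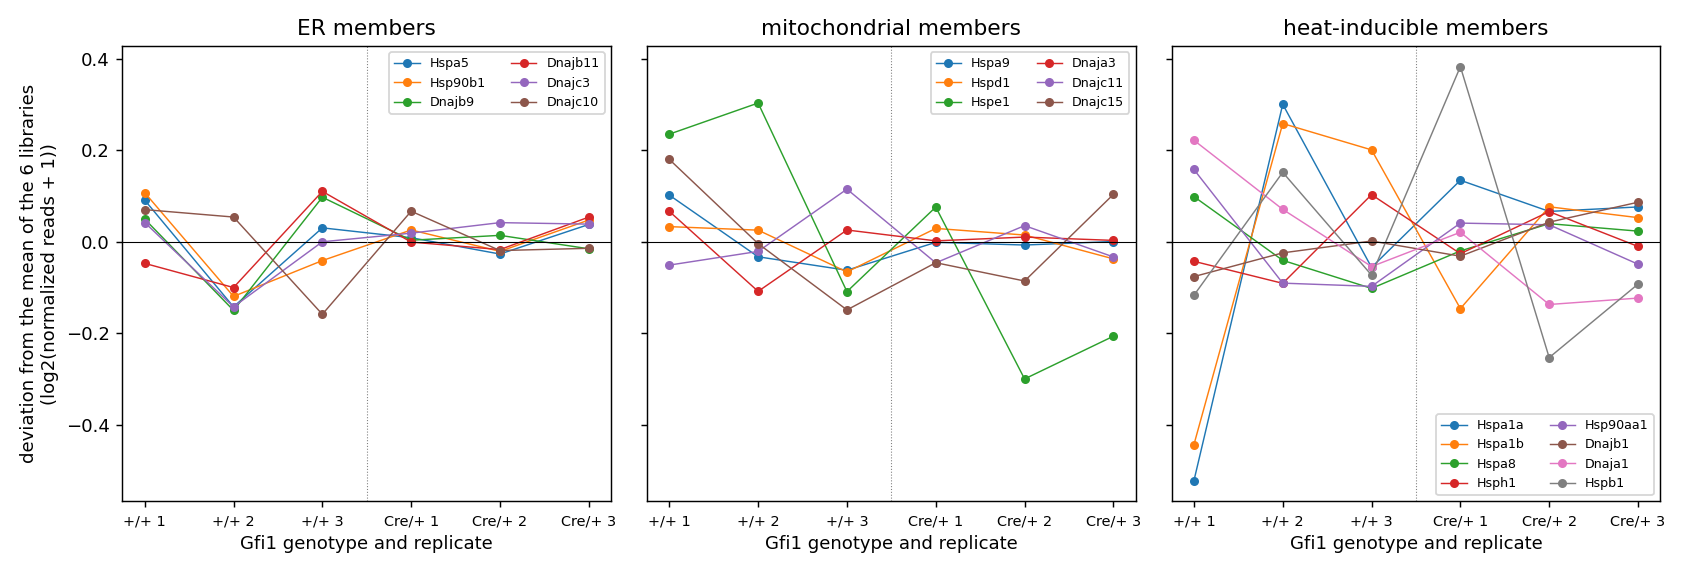
Deviation of each ER, mitochondrial and heat-inducible member from its own mean over the 6 libraries, on the log2(normalized reads + 1) scale. Lines join the points of 1 gene and imply no order of the libraries. In the left panel 5 of 6 ER members are lowest in Gfi1+/+ replicate 2, and in the right panel Hspa1a and Hspa1b are far below 0 in Gfi1+/+ replicate 1 while Dnaja1 and Hsp90aa1 are above 0.

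The 8 members listed as induced by heat, among them Hspa8, which is also made at all times, did not move as a group. Their mean deviation was -0.09 in Gfi1+/+ replicate 1 and 0.07 in Gfi1+/+ replicate 2, but single genes went opposite ways. In Gfi1+/+ replicate 1, Hspa1a, Hspa1b and Dnajb1 were at their lowest while Hspa8, Hsp90aa1 and Dnaja1 were at their highest. Hspb1 was highest in Gfi1Cre/+ replicate 1, where the rest of the 8 lay between -0.15 and 0.14. The 14 immediate early genes, which respond to handling of the tissue, summed to 6241 to 7191 normalized reads in Gfi1+/+ and 6967 to 7137 in Gfi1Cre/+, and none had an unadjusted p under 0.05 in limma. Of the 6 mitochondrial members, Hspa9, Hspd1, Dnaja3 and Dnajc15 were highest in Gfi1+/+ replicate 1. Dnaja3, the mitochondrial DnaJ partner of Hspa9, had 1112, 985 and 1081 normalized reads in Gfi1+/+ and 1064, 1070 and 1064 in Gfi1Cre/+. Dnajc15, a cochaperone of the import motor, had 395, 348 and 314 normalized reads in Gfi1+/+ and 338, 328 and 375 in Gfi1Cre/+, and Dnajc11, of the cristae organizing complex, had 1164, 1188 and 1306 in Gfi1+/+ and 1168, 1236 and 1178 in Gfi1Cre/+. Genotypes overlapped in all 6.

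The chaperones and cochaperones outside the naming rule were read from the same fit. Of 68 listed genes 63 were tested, 29 higher and 34 lower in Gfi1Cre/+, and none had an adjusted p under 0.05 in limma. At an unadjusted p under 0.05 there was 1 of 63 (1.59%), where limma called 3.04% of all genes tested and 2.02% as lower in Gfi1Cre/+. It was Vbp1, a prefoldin subunit that hands actin and tubulin to the chaperonin TRiC. Vbp1 had 562, 499 and 472 normalized reads in Gfi1+/+ and 467, 406 and 429 in Gfi1Cre/+, a log2 fold change of -0.23 (unadjusted p = 0.0237, adjusted p = 0.999, limma with Benjamini-Hochberg adjustment). The log2 fold changes of all 6 prefoldin subunits were below 0, with a median of -0.09 that ran from -0.19 without Gfi1+/+ replicate 3 to -0.05 without Gfi1+/+ replicate 2, and so were those of all 8 TRiC subunits, with a median of -0.03. Without Gfi1+/+ replicate 1, 5 of 6 prefoldin subunits were below 0. The sign of the TRiC median rested on 1 library, as it was 0.04 with 6 of 8 above 0 without Gfi1+/+ replicate 1. All 8 TRiC subunits were highest in Gfi1+/+ replicate 1, and 7 of the 8 were lowest in Gfi1+/+ replicate 3. Of the 10 ER chaperones, 9 had log2 fold changes above 0, with a median of 0.06, and 4 of 10 with a median of -0.00 without Gfi1+/+ replicate 2. Genotypes did not overlap in 5 of the 63 genes (7.94%), against 7.52% of all genes tested. The 5, named here after their values were seen, were Vbp1 lower and, higher in Gfi1Cre/+, the calcium-binding ER chaperone Calr, the HSP90 cochaperones Fkbp4 and Ppp5c and the mitochondrial exchange factor Grpel2. Calr had 22249, 20645 and 22044 normalized reads in Gfi1+/+ and 22507, 23329 and 23778 in Gfi1Cre/+, a log2 fold change of 0.10 (unadjusted p = 0.167, limma). The heat shock factors Hsf1, which switches the inducible members on, and Hsf2 had log2 fold changes of 0.07 and 0.07 with overlapping genotypes.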

How the data were processed

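RNA of 6 cochlear duct libraries was sequenced as paired ends from TruSeq libraries. The authors aligned the reads to mm10 and counted uniquely mapped reads on genes, for which the submitters' processing notes name TopHat and HTSeq. Tool versions, annotation and strand setting are not given in the sources used here. They deposited 1 signal per gene and library, which their methods call quantile-normalized. Up to rounding, 100% of the values of each library came out as whole reads once multiplied by the median-of-ratios size factor, so the deposited signal is the number of reads over that factor. The libraries of a genotype are independent biological samples. The p-values and intervals rest on a spread per gene common to both genotypes and moderated across genes. It therefore mixes the variation between single mice with that between pools.

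A gene was tested where any library reached 40 normalized reads (14455 of 14865). The test was limma 3.58.1 (R 4.3.3, trend, two-sided) on log2(value + 1), genotype being the only term, with Benjamini-Hochberg adjustment over all genes tested. This scale understates changes of low genes. edgeR 4.0.16 (quasi-likelihood) and DESeq2 1.42.0 were run on the recovered reads and called 4 and 10 genes of the whole table at an adjusted p under 0.05, against 4 in limma. Other alternatives were pseudocounts of 0.1 and 10, other filters, no trend, robust variances, scaling to library totals, quantile normalization, the replicate number as a block and each library left out. The limma fit was run on simulated reads with log2 changes of 1 and 2 and a dispersion common to all genes. At an adjusted p under 0.05 it recovered all 98 and all 102 changed genes, with 7 false calls. Changes as small as those of the members were not simulated, nor was the mix of single mice and pools.

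The members and gene lists were chosen with earlier results of these data known. Named with values were the leading members of each class, members with an unadjusted p under 0.05, fixed pairs, the heat-inducible, ER, mitochondrial, neuronal and muscle members and the 5 with the widest range. Exon lengths and positions came from GENCODE vM21 (GRCm38), which held 14791 of the 14865 identifiers. Near-identity was a BLAST+ 2.17.0 match of at least 98% over at least 100 bases to the transcript of another gene. Intervals are 95%.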

Additional observations from a re-analysis of the deposited data

How the results depend on the processing

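The count of members at an adjusted p under 0.05 was 0 under every alternative run, and Dnajc6 was below 0 with an unadjusted p under 0.05 in all of them. The count at an unadjusted p under 0.05 ran from 1 to 8 with each library left out. The 8 were 12.1% of the members, against 16.2% of all genes without Gfi1+/+ replicate 3. Members with non-overlapping genotypes ran from 4 to 15, to be read beside the shares of all genes given with Dnajc6 above. Without Gfi1Cre/+ replicate 1 the median log2 fold change of the small heat shock proteins was -0.14, and without Gfi1+/+ replicate 1 that of HSP90 was 0.10. With each library left out these medians ran from -0.14 to 0.0568 for the small class and from -0.0156 to 0.0976 for HSP90. Deviations of same-numbered libraries from their genotype means correlated at -0.0944, 0.107 and -0.0326. Libraries with different numbers correlated between -0.156 and 0.150. With means over 3 libraries, these values cannot exclude that replicate numbers pair the libraries. With the replicate number as a block 3 members had an unadjusted p under 0.05, Dnaja1, Dnajc6 and Hspe1, and 462 genes in all against 439. Of 578 log2 fold changes of the 34 named members under 17 alternatives, 536 kept their sign. The 42 others fell in 23 members whose main log2 fold change was at most 0.18 in size. The other filters, no trend, robust variances and the replicate block leave the log2 fold change as it is. Their values kept the sign by construction, so the 536 overstate how stable the signs were. Depth limits Hspa1a, Dnajb3 and Dnajc17 most, each with under 100 reads per library.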
